A study of Mus musculus with 12 samples.

Results

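Fibronectin and the matricellular proteins are secreted glycoproteins of the extracellular matrix, and 10 of their genes were followed here: Fn1 (fibronectin), Postn (periostin), Tnc, Tnn and Tnxb (tenascins C, N and XB), Thbs1, Thbs2 and Thbs3 (thrombospondins), Sparc (osteonectin) and Spp1 (osteopontin). They were taken by symbol from a table of 32544 gene rows, and all 10 were found and passed the filter on low counts that left 14279 genes for testing. RNA came from 3T3 cells, a mouse fibroblast line, in 4 groups of 3 libraries. The untreated group received no vesicles. The other groups received, for 24 h, extracellular vesicles (EVs, membrane particles shed by cells) of MDA-MB-468, a human breast cancer line. The vesicles came from its control derivative (shCon), from cells with CRIPTO knocked down (shCr) or from cells that overexpress it (CrOE). CRIPTO is a membrane-anchored co-receptor of TGF-beta family ligands. The CrOE columns carried only the protein's name and were matched to these libraries by elimination. The EV dose, whether a donor line was a single clone, and whether replicates were separate cultures are not given in the sources used here. P-values therefore measure the spread between these libraries, which may be technical.

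Fibronectin is a structural protein that cells pull into fibrils through integrins, and other matrix proteins, collagens among them, are laid down on those fibrils. Matricellular proteins are placed in the same matrix but mainly signal: they bind integrins, syndecans and growth factors and tune adhesion, migration and TGF-beta activity. In fibroblasts, fibronectin, periostin and tenascin C are known as products of activated cells in wounds and in tumour stroma, whereas thrombospondins 1 and 2 are known as inhibitors of blood vessel growth.

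Library totals ran from 25960054 to 37774020 estimated counts, and the 10 genes together held 0.510% to 1.49% of a library's counts. Mitochondrially encoded genes held 0.495% to 1.70%. Levels are CPM, a gene's counts relative to a common library total after TMM scaling. A call is a Benjamini-Hochberg adjusted p under 0.05 over all 14279 genes in the quasi-likelihood test of edgeR. Tdgf1, the mouse gene of CRIPTO, held 0 to 3 counts in each library. The libraries hold RNA of the mouse recipient cells, so at any count Tdgf1 gives no check of CRIPTO in the human donor cells. On the third principal component, shCr EV replicate 1 lay at -42.0 and its replicates at -1.47 and 5.05; values without it are given where it changed a call.

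Of the 10 genes, 8 were called after shCon EVs against untreated cells (2 higher, 6 lower), where 38.1% of all tested genes were called, 18.0% higher and 20.2% lower. After shCr EVs 9 were called (2 higher, 7 lower) against a background of 37.3% (18.4% higher, 18.8% lower). After CrOE EVs 9 were called, all lower, against a background of 73.7% (36.7% higher, 37.0% lower). Libraries of the compared groups did not overlap in CPM for 9 of the 10 genes in each of these comparisons, where 54.2%, 41.9% and 77.7% of all genes did not overlap. The median log2 fold change of the 10 genes was -0.40, -0.42 and -2.56 in these comparisons, and that of all tested genes lay between 0.0069 and 0.020. The 3 comparisons share the untreated libraries. In the plot of levels by library, the CrOE EV points of Postn, Thbs1, Thbs2 and Spp1 lie far below the points of the other groups, and the shCon EV points of Fn1 stand above the rest.

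**Figure D1:**
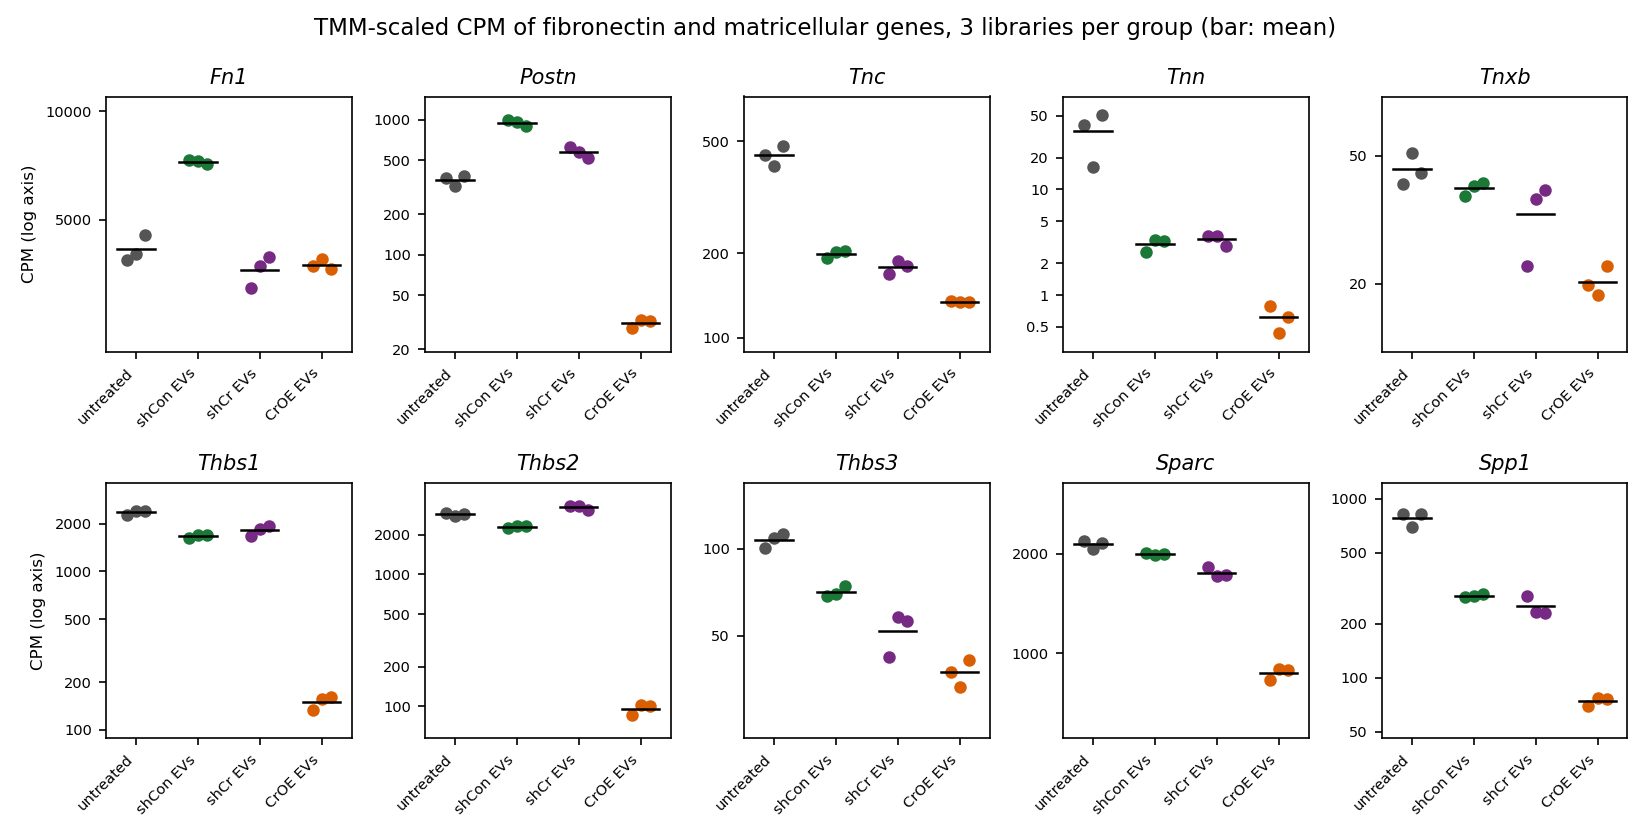
TMM-scaled CPM (log axis, a range of its own in each panel) of the 10 genes in the 4 groups, with 1 point per library and a bar at the group mean. Fn1 lay between 7118 and 7312 CPM after shCon EVs and between 3245 and 4535 CPM in the other 9 libraries.

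Fn1, the gene of fibronectin, was highest after shCon EVs and was the only member that was not called lower with CrOE EVs than in untreated cells. It stood at 3878, 4028 and 4535 CPM in untreated replicates 1 to 3, at 7312, 7281 and 7118 after shCon EVs, at 3245, 3721 and 3947 with shCr EVs and at 3730.4, 3896 and 3654 after CrOE EVs. The shCon EV libraries lay above all others, and the other 3 groups overlapped. Fn1 rose 1.75-fold with shCon EVs (log2 fold change 0.80, SE 0.074, adjusted p = 3.38e-06, edgeR). Against shCon EVs it was 1.99-fold lower with shCr EVs (log2 fold change -0.99, SE 0.074, adjusted p = 7.46e-06, edgeR) and 1.92-fold lower after CrOE EVs (log2 fold change -0.94, adjusted p = 1.03e-07, edgeR). Among all tested genes, 0.917% had a lower log2 fold change between shCr and shCon EVs.

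After shCr and CrOE EVs Fn1 lay near its untreated level, with intervals that left room for a small difference. Against untreated cells its log2 fold change was -0.19 with shCr EVs (95% interval -0.35 to -0.030, edgeR adjusted p = 0.0607) and -0.14 after CrOE EVs (interval -0.30 to 0.018, adjusted p = 0.0997). Between CrOE and shCr EVs it was 0.048 (interval -0.11 to 0.21, edgeR adjusted p = 0.571), and -0.028 without shCr EV replicate 1. The shCr EV difference from untreated cells passed the threshold without shCr EV replicate 3 (-0.25, edgeR adjusted p = 0.0212), without untreated replicate 1 (-0.25, adjusted p = 0.0354), and with DESeq2 (adjusted p = 0.0411).

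Postn encodes periostin, an integrin ligand that binds collagen and fibronectin and helps to cross-link collagen. It moved both ways: up after shCon and shCr EVs, and down after CrOE EVs. Its level was 372, 322 and 384 CPM in untreated cells, 988, 953 and 895 after shCon EVs, 626, 580.1 and 518 with shCr EVs and 28.7, 32.7 and 32.2 after CrOE EVs. No pair of groups overlapped. Relative to untreated cells Postn rose 2.63-fold with shCon EVs (log2 fold change of 1.40, SE 0.085, adjusted p = 9.67e-08, edgeR) and 1.60-fold with shCr EVs (0.68, SE 0.084, adjusted p = 4.01e-05, edgeR). After CrOE EVs it was 11.5-fold lower (-3.52, SE 0.094, adjusted p = 2.97e-12, edgeR).

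Between the EV groups, Postn was 1.64-fold lower with shCr than with shCon EVs (log2 fold change -0.72, SE 0.084, adjusted p = 2.21e-04, edgeR). With CrOE EVs it was 30.3-fold lower than with shCon EVs (log2 fold change -4.92) and 18.4-fold lower than with shCr EVs (-4.20). The step from shCon to CrOE EVs was the largest fold difference of Postn among the 6 pairs of groups.

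Promoter sequences of 8 of the 10 genes, in 11 windows, were found in the RefSeq table for GRCm38.p6. The windows of Postn, Thbs2 and Sparc are shown as examples. With CrOE EVs against untreated cells, Postn and Thbs2 fell steeply (log2 fold changes -3.52 and -4.88) and Sparc less (-1.29). They are not the extremes of the genes with windows, since Tnn (-5.87) fell more and Tnxb (-1.16) less. A link between motifs and the size of the fall was not tested. Each holds the 250 bases before a transcript start, 5′ to 3′ on the gene's strand, with TATAAA and CCAAT matches on either strand in capitals. For Postn, with 2 starts in the table, the window of the start nearest to that of the longest coding transcript is printed.
Postn, chr3:54360857-54361106, plus strand: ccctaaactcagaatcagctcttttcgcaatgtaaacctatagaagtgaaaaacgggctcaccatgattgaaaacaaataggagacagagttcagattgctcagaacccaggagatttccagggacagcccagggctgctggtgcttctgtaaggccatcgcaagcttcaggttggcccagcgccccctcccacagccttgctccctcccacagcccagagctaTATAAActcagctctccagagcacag
Thbs2, chr17:14694263-14694512, minus strand: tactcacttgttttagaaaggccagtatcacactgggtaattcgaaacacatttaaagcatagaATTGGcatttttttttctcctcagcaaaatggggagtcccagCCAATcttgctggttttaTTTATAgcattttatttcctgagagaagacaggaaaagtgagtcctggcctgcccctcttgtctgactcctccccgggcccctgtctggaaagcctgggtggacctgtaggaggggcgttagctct
Sparc, chr11:55420081-55420330, minus strand: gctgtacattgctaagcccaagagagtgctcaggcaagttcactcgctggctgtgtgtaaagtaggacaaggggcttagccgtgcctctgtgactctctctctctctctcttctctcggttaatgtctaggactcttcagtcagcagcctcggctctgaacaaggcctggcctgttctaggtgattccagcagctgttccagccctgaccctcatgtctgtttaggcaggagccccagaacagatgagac
The Postn window holds 1 TATAAA match, 26 to 21 bases before its start. The Thbs2 window holds a TATAAA match on the opposite strand, 126 to 121 bases before its start, and CCAAT matches on both strands, and the Sparc window holds neither.

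Among all 8 genes found, 4 had TATAAA in a window (Postn, Tnc, Thbs2 and Spp1), compared with 14.3% of 27025 genes with windows of the same length. These matches began 26 bases before the start for Postn, 205 and 126 for the 2 windows of Tnc, 126 for Thbs2 and 211 for Spp1. The Spp1 match lay in the window 1081 bases from the start of its longest coding transcript, not in the nearest one. The Tnc windows lay 26211 and 26290 bases from that of Tnc. CCAAT was present for 4 genes (Tnn, Thbs2, Thbs3 and Spp1), compared with 37.5%. The GC box GGGCGG was present for 2 (Tnc and Thbs3; 35.4% of all genes), and the AP-1 motif TGANTCA for 1 (Tnxb; 7.82%). The cyclic AMP response element TGACGTCA (1.77% of all genes) and the CArG box (1.62%) matched no member window. Both strands were searched, a match to one motif can overlap a match to another, and a match is a description of letters only.

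Tenascins are large multimeric glycoproteins, known mostly for weakening the adhesion of cells to fibronectin. Tnc, the tenascin of wounds and tumour stroma, fell after every kind of EV. Its level was 448, 406 and 480.5 CPM in untreated cells, 191, 202 and 203 after shCon EVs, 169, 188 and 181 with shCr EVs and 135, 134 and 134 after CrOE EVs. All EV libraries lay below all untreated ones, and the CrOE EV libraries were lowest. Against untreated cells the log2 fold change was -1.16 after shCon EVs (SE 0.063, adjusted p = 3.87e-08, edgeR), -1.31 with shCr EVs (SE 0.064, adjusted p = 1.20e-08, edgeR) and -1.73 after CrOE EVs (SE 0.064, adjusted p = 6.16e-11, edgeR). The difference between shCr and shCon EVs was -0.15 (95% interval -0.29 to -0.015, edgeR adjusted p = 0.174), although the 3 shCr EV libraries lay below the 3 shCon EV libraries.

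Tnn, a tenascin known from bone and stem cell niches, spread widely among untreated libraries, at 41.2, 16.4 and 50.7 CPM, and had few counts in the EV libraries. After shCon EVs it was at 2.58, 3.35 and 3.28 CPM, with shCr EVs at 3.67, 3.65 and 2.92 and after CrOE EVs at 0.793, 0.436 and 0.618. The lowest untreated library was still above every EV library, and the CrOE EV libraries were below all others. After CrOE EVs Tnn was 58.6-fold lower than in untreated cells (log2 fold change -5.87, SE 0.42, adjusted p = 3.87e-08, edgeR) and was also below its level after shCon EVs (-2.32, SE 0.50, adjusted p = 9.99e-04, edgeR). Between shCr and shCon EVs the log2 fold change was 0.14 with an interval from -0.69 to 0.98 (edgeR adjusted p = 0.873), which left room for a change of either sign.

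Tnxb, a tenascin that binds collagen fibrils and is known for its part in skin elasticity, had the smallest log2 fold changes of the tenascins against untreated cells. It stood at 40.8, 50.9 and 44.2 CPM in untreated cells, 37.4, 40.3 and 41.2 after shCon EVs, 22.8, 36.6 and 39.1 with shCr EVs and 19.8, 18.4 and 22.7 after CrOE EVs. Only the CrOE EV libraries lay below those of all 3 other groups, and shCr EV replicate 1 was close to them. Tnxb was 2.23-fold lower with CrOE EVs than in untreated cells (log2 fold change -1.16, SE 0.16, adjusted p = 2.87e-05, edgeR).
After shCon EVs it was at -0.19 (interval -0.54 to 0.15, edgeR adjusted p = 0.371), and with shCr EVs it was called lower at -0.46 (SE 0.16, adjusted p = 0.0384, edgeR). The latter call was lost without untreated replicate 2 (-0.37, edgeR adjusted p = 0.125) or untreated replicate 3 (-0.49, adjusted p = 0.0741), and the value was -0.26 (adjusted p = 0.0420) without shCr EV replicate 1. Of the 31-base stretches in Tnxb transcripts, 9.70% were also present in another gene, so part of its counts may be shared.

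Thrombospondins 1 and 2 are trimeric proteins that bind CD36 and CD47 on cells, and thrombospondin 1 is also known as an activator of latent TGF-beta. Both genes fell steeply after CrOE EVs. Thbs1 was at 2278, 2413 and 2404 CPM in untreated cells, 1633, 1701 and 1688 after shCon EVs, 1669.7, 1857 and 1944 with shCr EVs and 133, 157 and 161 after CrOE EVs. The shCon and shCr EV libraries overlapped below the untreated ones, and the CrOE EV libraries were far below all of them. Against untreated cells Thbs1 was 15.7-fold lower after CrOE EVs (log2 fold change -3.97, SE 0.083, adjusted p = 4.77e-13, edgeR), 1.41-fold lower after shCon EVs (-0.50, SE 0.074, adjusted p = 1.83e-04, edgeR) and 1.30-fold lower with shCr EVs (-0.38, SE 0.074, adjusted p = 0.0014, edgeR). Between shCr and shCon EVs the difference was 0.12 (interval -0.036 to 0.28, edgeR adjusted p = 0.365).

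Thbs2 was higher with shCr than with shCon EVs. It stood at 2903, 2755 and 2889 CPM in untreated cells, 2266, 2339 and 2310.5 after shCon EVs, 3298, 3289.8 and 3084 with shCr EVs and 86.7, 102 and 100.5 after CrOE EVs. No pair of groups overlapped, and shCr EV libraries were highest. Thbs2 was 1.40-fold higher with shCr than with shCon EVs (log2 fold change 0.48, SE 0.061, adjusted p = 3.82e-04, edgeR), the single higher call among the 10 genes in that comparison. After CrOE EVs it was 29.5-fold lower than in untreated cells (log2 fold change -4.88, SE 0.072, adjusted p = 4.11e-14, edgeR) and 33.4-fold lower than with shCr EVs (-5.06).
Against untreated cells it was 1.24-fold lower with shCon EVs (log2 fold change -0.31, SE 0.061, adjusted p = 0.0017, edgeR) and 1.13-fold higher with shCr EVs (0.18, adjusted p = 0.0364, edgeR). The shCr EV call did not survive the loss of any untreated replicate (0.15 to 0.18, edgeR adjusted p = 0.0769 to 0.103) or of shCr EV replicate 2 (0.16, adjusted p = 0.101).

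Thbs3, a pentameric thrombospondin, had a lower level per kb than Thbs1 and Thbs2 in every group and was lower after each kind of EV than in untreated cells. Its level was 100.4, 109 and 112 CPM in untreated cells, 68.8, 70.0 and 74.2 after shCon EVs, 42.2, 58.0 and 56.2 with shCr EVs and 37.6, 33.4 and 41.4 after CrOE EVs. No pair of groups overlapped, although shCr EV replicate 1 was within 1 CPM of the highest CrOE EV library. The log2 fold change against untreated cells was -0.59 after shCon EVs (SE 0.11, adjusted p = 8.53e-04, edgeR), -1.04 with shCr EVs (SE 0.11, adjusted p = 9.23e-06, edgeR) and -1.52 after CrOE EVs (SE 0.11, adjusted p = 4.47e-08, edgeR). Thbs3 was 1.36-fold lower with shCr than with shCon EVs (-0.44, SE 0.11, adjusted p = 0.0237, edgeR), a call lost without any of the shCon EV replicates (-0.47 to -0.42, adjusted p = 0.0603 to 0.0951).
By the GENCODE M21 annotation, 6.59% of the exon bases of Thbs3 overlap Mtx1 on the opposite strand, and whether counting used the strand is not given in the sources used here. Opposite-strand genes other than Mtx1 overlap 2.50% of the exon bases of Fn1, 2.26% of Tnc and 3.42% of Thbs1, with the same limit.

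Sparc encodes osteonectin, a collagen-binding protein needed for procollagen handling, and stayed close to its untreated level except after CrOE EVs. Its level was 2185, 2073 and 2148 CPM in untreated cells, 2009.5, 1988 and 1991 after shCon EVs, 1824, 1715 and 1720.3 with shCr EVs and 832, 899 and 892 after CrOE EVs. The groups did not overlap, but the first 3 were close together. After CrOE EVs Sparc was 2.44-fold lower than in untreated cells (log2 fold change -1.29, SE 0.049, adjusted p = 6.99e-11, edgeR) and 2.28-fold lower than after shCon EVs (-1.19, SE 0.049, adjusted p = 1.77e-10, edgeR).
Against untreated cells Sparc was at -0.097 after shCon EVs (interval -0.20 to 0.0068, edgeR adjusted p = 0.131; 0.0257 in a model of these 2 groups alone) and was called lower with shCr EVs at -0.28 (adjusted p = 4.64e-04, edgeR). Its lower level with shCr than with shCon EVs (-0.19, SE 0.048, adjusted p = 0.0305, edgeR) did not hold without any shCon EV replicate (-0.19, adjusted p = 0.0849 to 0.101) or without shCr EV replicate 2 or 3 (-0.17, adjusted p = 0.0893 and 0.0733).

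Spp1 encodes osteopontin, a phosphoprotein of bone and of inflamed tissue that binds integrins and CD44. It was 817, 695 and 818 CPM in untreated cells, 284, 287 and 293 after shCon EVs, 285, 235 and 232 with shCr EVs and 69.4, 77.2 and 76.3 after CrOE EVs. Untreated libraries were highest and CrOE EV libraries lowest without overlap, and the shCon and shCr EV libraries overlapped through shCr EV replicate 1. Spp1 fell 2.70-fold with shCon EVs (log2 fold change -1.43, SE 0.087, adjusted p = 9.22e-08, edgeR), 3.10-fold with shCr EVs (-1.63, SE 0.087, adjusted p = 2.78e-08, edgeR) and 10.4-fold after CrOE EVs (-3.39, SE 0.094, adjusted p = 4.06e-12, edgeR).
Between shCr and shCon EVs its log2 fold change was -0.20 (interval -0.39 to -0.017, edgeR adjusted p = 0.182), and without shCr EV replicate 1 it was -0.31 (adjusted p = 0.0116). In the annotation 18.8% of the exon bases of Spp1 lie under Gm42793 on the same strand, so reads there could have been assigned to either gene.

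Donor CRIPTO knockdown was compared with the control donor through shCr and shCon EVs. Here 5 of the 10 genes were called, 1 higher (Thbs2) and 4 lower (Fn1, Postn, Thbs3 and Sparc), where 8.73% of all genes were called, 5.22% higher and 3.51% lower. Libraries did not overlap for 6 of the 10, against 28.0% of all genes. Their median was -0.19, and of all genes 0.0043. Fn1, Postn and Thbs2 held in each alternative tried, whereas Thbs3 and Sparc were lost without any 1 of the shCon EV replicates, which left 3 calls each time. Tnc, Tnn, Tnxb, Thbs1 and Spp1 were not called, with intervals given above.

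Donor CRIPTO overexpression was compared with the control derivative through CrOE and shCon EVs. No group is labelled as a vector control for overexpression, so CRIPTO and other differences between these donor lines cannot be told apart. All 10 genes were called lower, where 72.6% of all genes were called (36.5% higher, 36.1% lower). Libraries did not overlap for any of the 10, against 80.5% of all genes. The median log2 fold change was -1.57, and the fall ran from -0.56 (SE 0.063) for Tnc to -4.92 (SE 0.0996) for Postn. Against shCr EVs, 9 of 10 were lower after CrOE EVs (73.9% of all genes called, 36.9% higher and 37.0% lower), with Fn1 as the exception, and the same 9 did not overlap, against 74.0% of all genes. In the plot of fold changes, these comparisons separate Postn, Thbs1 and Thbs2, at -3.48 or below against shCon EVs, from the other 7 genes, at -2.32 or above.

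**Figure D2:**
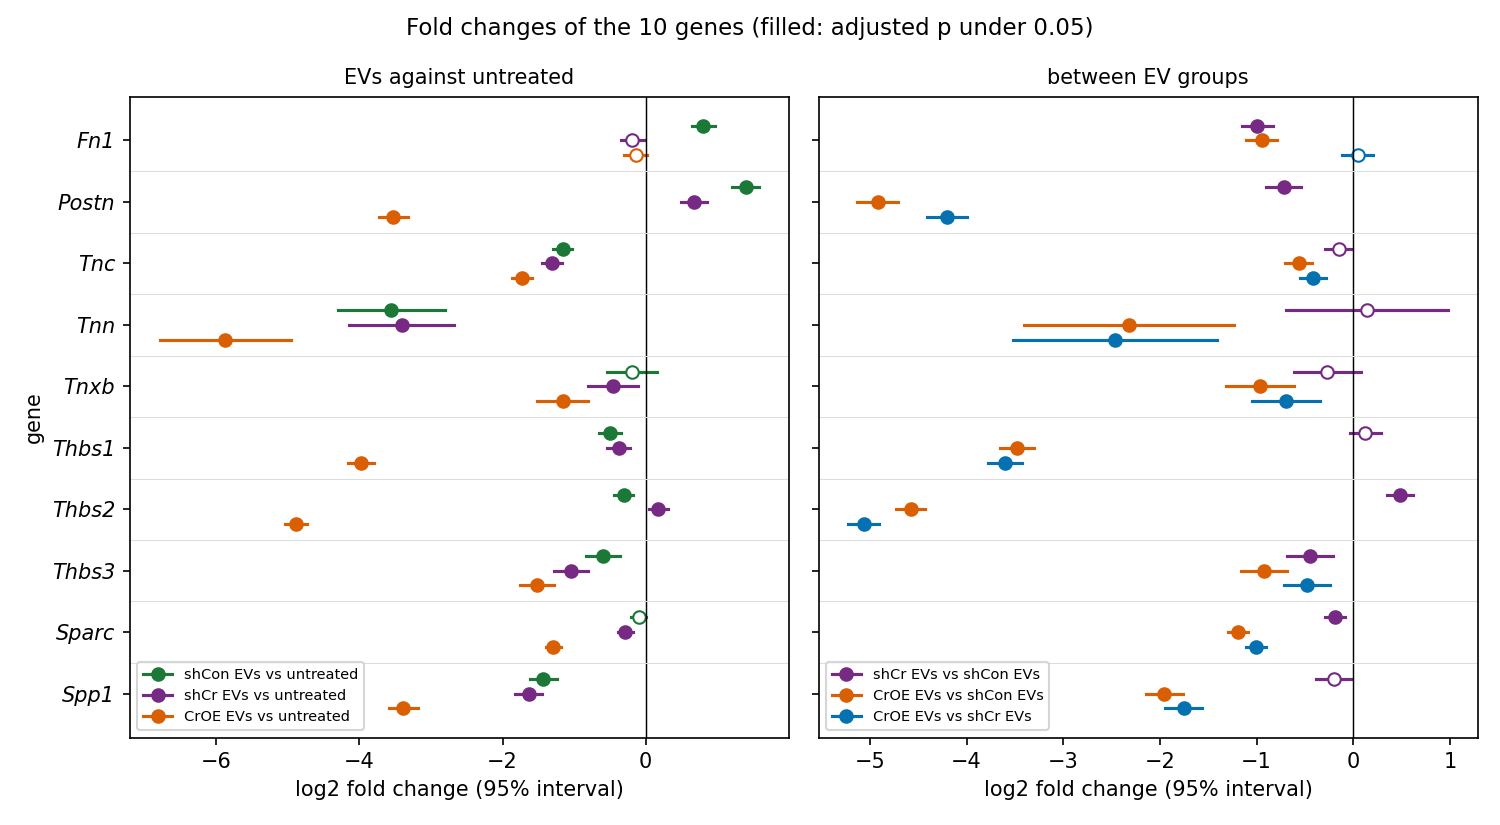
Log2 fold changes of the 10 genes with 95% intervals from the edgeR model, for EV groups against untreated cells (left) and between EV groups (right), with filled points for an adjusted p under 0.05. Fn1 at -0.14 is the open point among CrOE EV differences from untreated cells, and Thbs2 at 0.48 is the filled point right of 0 between shCr and shCon EVs.

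Levels were set side by side between genes only after division by the length of the longest coding transcript in GENCODE M21, as CPM per kb. In untreated cells the order was Sparc (928 ± 24.8 CPM per kb, SD, n = 3), Spp1 (515 ± 46.7), Fn1 (499 ± 41.4), Thbs2 (483 ± 13.9), Thbs1 (404 ± 12.9), Postn (112 ± 10.2), Tnc (62.6 ± 5.22), Thbs3 (33.6 ± 1.93), Tnn (6.20 ± 3.04) and Tnxb (3.71 ± 0.419). Libraries of Spp1, Fn1 and Thbs2 overlapped as neighbours in that order, as did those of Tnn and Tnxb. After shCon EVs Fn1 (870.4 ± 12.5) and Sparc (868 ± 5.09) led without a difference beyond their spread, and after CrOE EVs Fn1 (452 ± 14.9) lay above Sparc (380.0 ± 16.0). With the length of all exons of a gene instead, the order of some neighbours turned. In untreated cells Fn1 (355 ± 29.5) then came below Thbs2 (407 ± 11.7) and Thbs1 (389 ± 12.4), and Postn (41.3 ± 3.75) below Tnc (57.2 ± 4.77). After shCon EVs Fn1 (619 ± 8.92) then lay above Sparc (527 ± 3.09) without overlap, and Postn (109 ± 5.42) moved from above to below Thbs1 and Spp1. With shCr EVs it moved below Spp1 as well.

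The sum over the 10 genes was 3048 ± 117 CPM per kb in untreated cells, 2956 ± 21.1 after shCon EVs, 2449 ± 7.41 with shCr EVs and 966 ± 30.3 after CrOE EVs (SD, n = 3). Within that sum the share of Fn1 went from 16.4% ± 1.03 in untreated cells to 29.4% ± 0.228 (shCon), 17.9% ± 1.80 (shCr) and 46.8% ± 1.26 (CrOE). The share of Thbs2 was 15.9% ± 0.301, 13.2% ± 0.231, 22.3% ± 0.777 and 1.69% ± 0.104 in the same order. Postn made up 3.67% ± 0.205, 9.98% ± 0.437, 7.32% ± 0.675 and 1.01% ± 0.0431, and Spp1 16.9% ± 1.00, 6.47% ± 0.142, 6.79% ± 0.801 and 5.10% ± 0.164. With the length of all exons, the share of Postn was lower in every group, at 1.78%, 5.23%, 3.69% and 0.538%, with the same order of groups. The shares of Thbs2 (17.6%, 15.8%, 25.7% and 2.06%) and Spp1 (20.3%, 8.41%, 8.49% and 6.76%) were then higher in every group. Sparc went from 30.5% to 24.3% in untreated cells and from 39.3% to 34.6% after CrOE EVs, and Fn1 to 15.3% and 48.3%. In the plot of shares, Fn1 and Sparc fill most of each CrOE EV bar, and Spp1 narrows in all EV groups. Shares are bound to one another, so a larger share of Fn1 after CrOE EVs stood beside an Fn1 level that was not called different from untreated cells.

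**Figure D3:**
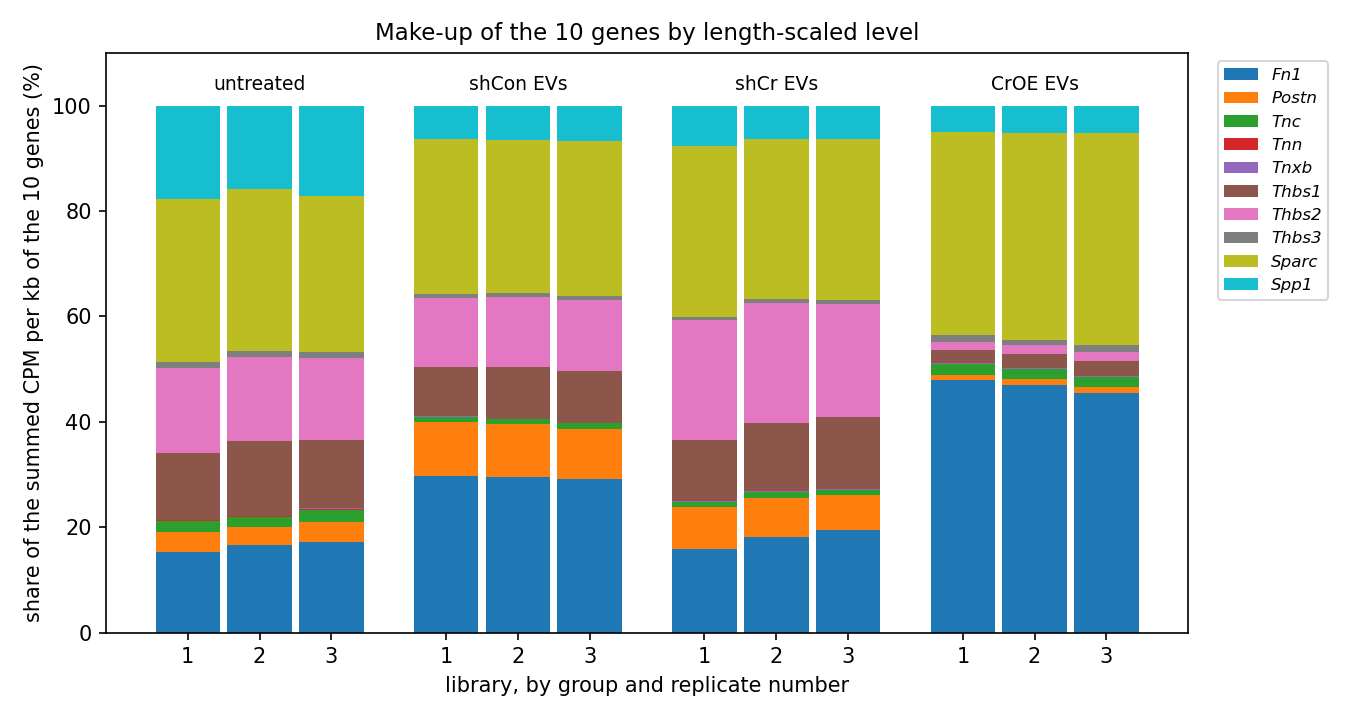
Share (%) of each gene in the summed CPM per kb of the 10 genes, with 1 stacked bar per library and libraries ordered by group and replicate number. Fn1 averaged 46.8% and Sparc 39.3% after CrOE EVs, against 16.4% and 30.5% in untreated cells.

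Ratios of the length-scaled levels showed how pairs moved apart. Fn1 over Thbs2 was 1.03 ± 0.0831 in untreated cells, 2.23 ± 0.0541 after shCon EVs, 0.802 ± 0.105 with shCr EVs and 27.8 ± 2.45 after CrOE EVs (SD, n = 3). Thbs1 over Thbs2 was 0.838 ± 0.0459, 0.732 ± 0.00508, 0.572 ± 0.0626 and 1.57 ± 0.0357 in the same order. Postn over Tnc was 1.79 ± 0.0460, 10.6 ± 0.843, 7.14 ± 0.970 and 0.515 ± 0.0386. These ratios depend on the length used, by the same factor in every group. With the length of all exons, Postn over Tnc was 0.721 ± 0.0185, 4.25 ± 0.340, 2.88 ± 0.391 and 0.207 ± 0.0156, so in untreated cells its side of 1 turned. Fn1 over Thbs2 in untreated cells was then 0.872 ± 0.0702, and Thbs1 over Thbs2 ran from 0.905 to 1.01 in those libraries.

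Likeness of pattern was measured as Pearson's r of log2 CPM over the 12 libraries, which are 4 groups of 3, so r describes mostly shared group levels and carries no test. Thbs1 and Thbs2 were alike at 0.99, Thbs1 and Sparc at 0.98, and Tnc and Tnn at 0.97. Fn1 was least like the other members, with r from 0.039 (Tnn) to 0.53 (Postn). Of 9741 other genes, those most like Fn1 were Fam20a (0.94), Itgb5 (0.93) and Sertad4 (0.90). Those most like Postn were Galnt10, Matn2 and Dpt (0.99 each), and those most like Thbs2 were Tnfsf12, Plat and BC029722 (0.999 each).

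The other matricellular genes on a list of 25, of which 15 were tested, did not move as a block. After shCon EVs 5 were higher and 5 lower than in untreated cells, with shCr EVs 5 and 7, and after CrOE EVs 3 and 8. Of all tested genes 38.1%, 37.3% and 73.7% were called, so the count of either sign after CrOE EVs was near the background. By sign, 36.7% of all genes were higher and 37.0% lower after CrOE EVs, a more even split than on the list. The median log2 fold change of the 15 listed genes was 0.013, -0.036 and -1.09. With shCr relative to shCon EVs, 4 were higher and 5 lower, where 8.73% of all genes were called. Wisp1, a CCN family gene downstream of WNT signalling, was at 43.2 ± 3.78 CPM in untreated cells, 65.8 ± 1.98 after shCon EVs, 30.3 ± 2.53 with shCr EVs and 136 ± 2.69 after CrOE EVs (SD, n = 3). It was lower with shCr than with shCon EVs (log2 fold change -1.12, SE 0.073, adjusted p = 2.97e-06, edgeR) and higher with CrOE EVs (1.05, adjusted p = 2.35e-08, edgeR).

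Ctgf, another CCN gene and a known TGF-beta and YAP target, had the same order of group means: 11.5 ± 2.28, 15.7 ± 0.999, 7.66 ± 0.904 and 28.7 ± 2.41 CPM (SD, n = 3). Against untreated cells both genes were called higher after shCon and CrOE EVs and lower with shCr EVs. Smoc2, a relative of Sparc with a calcium-binding domain, stood at 1.46 ± 0.487 CPM with CrOE EVs, where untreated cells had 36.7 ± 1.42 (log2 fold change -4.64, adjusted p = 7.76e-12, edgeR). Sparcl1, the closest relative of Sparc on the list, was 15.2 ± 0.977 CPM with shCr EVs and 4.86 ± 0.418 after shCon EVs (1.64, adjusted p = 1.42e-04, edgeR). After CrOE EVs Sparcl1 was at 0.381, 0.436 and 0.0562 CPM, the last of these below the floor of 3 counts.

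Receptors of these proteins, 14 tested of a list of 16, were 5 higher and 4 lower after shCon EVs, 4 higher and 5 lower with shCr EVs, and 0 higher and 10 lower after CrOE EVs, with a median of -0.65 in the last. Of all tested genes 38.1%, 37.3% and 73.7% were called in these comparisons, the last with 36.7% higher and 37.0% lower. Itgb3, the beta subunit of a vitronectin and osteopontin receptor, was 22.8 ± 0.724 CPM in untreated cells, 40.2 ± 1.04 and 39.4 ± 3.52 after shCon and shCr EVs and 4.20 ± 0.518 after CrOE EVs (SD, n = 3). Sdc4, the syndecan that acts with integrins in fibronectin adhesion, was lower with each kind of EV: 169 ± 1.64 CPM in untreated cells became 62.7 ± 2.36 (shCon), 74.2 ± 5.20 (shCr) and 30.98 ± 1.97 (CrOE). Itgb5, a partner subunit of the alpha-v integrin, was highest after shCon EVs, at 345 ± 3.62 CPM against 216 ± 1.29 in untreated cells, 231 ± 8.93 with shCr EVs and 223 ± 10.7 after CrOE EVs. Between shCr and shCon EVs 2 receptors were higher and 1, Itgb5, was lower (log2 fold change -0.58, adjusted p = 1.81e-05, edgeR), where 8.73% of all genes were called. The higher calls, Cd44 (0.21) and Sdc4 (0.24), were lost without any 1 of the shCon EV replicates (edgeR adjusted p = 0.0531 to 0.153) or without shCr EV replicate 1 (0.0664 and 0.0543), and Cd44 also without shCr EV replicate 2 (0.0989). Without a shCon EV replicate 1 receptor was left as a call.

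Collagens and other structural partners, 14 genes all tested, were 2 higher and 4 lower after shCon EVs, 0 higher and 9 lower with shCr EVs and 1 higher and 13 lower after CrOE EVs. Lower calls made up 20.2%, 18.8% and 37.0% of all tested genes, and calls of either sign 38.1%, 37.3% and 73.7%, so the count after shCon EVs was near the background. The medians were 0.064, -0.43 and -1.65. Col1a1, a chain of type I collagen, rose after shCon EVs to 6557 ± 37.8 CPM from 4535 ± 229 in untreated cells, stood at 3532 ± 558 with shCr EVs and fell to 721 ± 23.8 with CrOE EVs (SD, n = 3). It was lower with shCr than with shCon EVs (log2 fold change -0.89, SE 0.091, adjusted p = 8.43e-05, edgeR). Dcn, the collagen-binding proteoglycan decorin, had 546 ± 34.3 CPM without EVs but 50.3 ± 6.18 with CrOE EVs (-3.44, adjusted p = 5.03e-11, edgeR). Vcan, the proteoglycan versican, was also lower with CrOE EVs than in untreated cells, at 519.6 ± 55.0 and 756 ± 118 CPM (-0.54, adjusted p = 0.00145, edgeR), but stood above its 338 ± 12.7 CPM after shCon EVs (0.62, adjusted p = 5.40e-04, edgeR).

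Of the 13 TGF-beta signalling genes, 4 were called higher and 5 lower after shCon EVs, 4 and 5 with shCr EVs, and 5 and 6 after CrOE EVs. All tested genes were likewise split between higher and lower calls, at 18.0% and 20.2%, 18.4% and 18.8%, and 36.7% and 37.0%. Skil, a feedback inhibitor that TGF-beta itself induces, was at 21.8 ± 1.73 CPM in untreated cells, 38.04 ± 4.18 after shCon EVs, 14.8 ± 1.26 with shCr EVs and 77.5 ± 6.78 after CrOE EVs (SD, n = 3). Relative to shCon EVs it was lower with shCr EVs (log2 fold change -1.36, SE 0.0995, adjusted p = 7.03e-06, edgeR), among 2 higher and 4 lower calls (8.73% of all genes were called), of which 3 were left without shCon EV replicate 2 or 3. After CrOE EVs the ligand gene Tgfb1 was 24.7 ± 0.586 CPM, below 82.1 ± 1.92 after shCon EVs (-1.73, adjusted p = 3.63e-10, edgeR), and Smad7, an inhibitory SMAD, was higher (1.74, adjusted p = 1.91e-10, edgeR).

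Of 11 transcription factors known to act on genes of this kind, 1 was higher and 5 were lower after shCon EVs, 1 and 5 with shCr EVs, and 2 and 5 after CrOE EVs, where 38.1%, 37.3% and 73.7% of all genes were called. The comparison of shCr with shCon EVs, with 8.73% of all genes called, called 1, Twist1 (log2 fold change 0.25, adjusted p = 0.0387, edgeR), and that call was lost without any 1 of the shCon EV replicates (edgeR adjusted p = 0.0962 to 0.154) and without shCr EV replicate 1 (0.0589) or 2 (0.0965). With shCr EV replicate 1 left out, the count of called factors was 3. Ets2 rose in each EV group, where it reached 241 ± 9.70 (shCon), 275 ± 21.4 (shCr) and 428 ± 19.1 CPM (CrOE), compared with 168 ± 1.62 without EVs. Prrx1, a homeobox gene of mesenchymal cells, had 704 ± 33.7 CPM without EVs but 203 ± 10.05 with CrOE EVs (-1.79, adjusted p = 1.05e-10, edgeR). The plot of related genes shows these opposing patterns: Wisp1, Ctgf and Skil were highest after CrOE EVs, where Smoc2, Sparcl1, Itgb3 and Col1a1 were lowest.

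**Figure D4:**
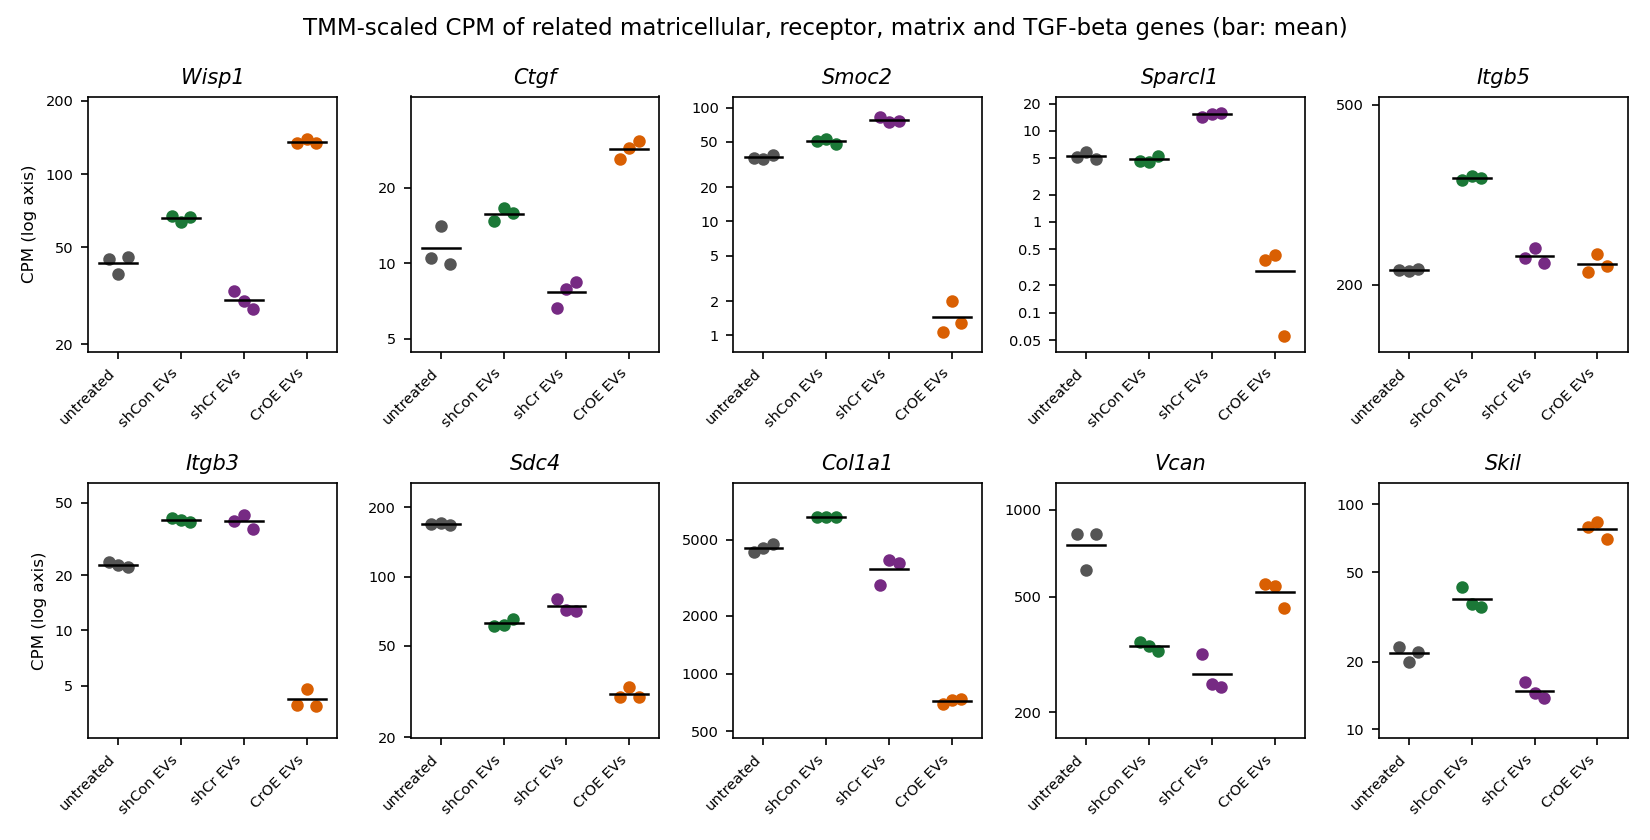
TMM-scaled CPM (log axis, a range of its own in each panel) of 10 genes from the related lists in the 4 groups, with 1 point per library and a bar at the group mean. Wisp1 averaged 136 CPM after CrOE EVs against 30.3 with shCr EVs, while Itgb3 averaged 4.20 CPM after CrOE EVs against 39.4.

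Cell identity was checked with marker lists. The 8 fibroblast markers summed to 14165 to 15011 CPM in untreated libraries, 16017 to 16163 after shCon EVs, 11024 to 12633 with shCr EVs and 4409 to 4617 after CrOE EVs. All 8 were called lower with CrOE EVs than in untreated cells, and Lum was at the floor there with at most 1 count. Against untreated cells, the fall of 9 of the 10 genes after CrOE EVs (all but Fn1) ran beside a fall of fibroblast markers. In bulk RNA, fewer cells of a type and less RNA per cell cannot be told apart. Summed epithelial markers, the class of the donor line, were low but highest after CrOE EVs. Over 10 genes they held 3.00 to 3.81 CPM there and at most 2.10 in the other groups, with Epcam at 0 counts in all 12 libraries. The markers did not move together. Cldn4, Krt18 and Grhl2 averaged 1.15, 0.849 and 0.323 CPM with CrOE EVs, against 0, 0.346 and 0.0618 in untreated cells. Cdh1, Krt5 and Krt19 were lower with CrOE EVs, at 0.0870, 0.0423 and 0.621 CPM against 0.137, 0.149 and 0.942. Endothelial markers summed to 2.25 to 2.56 CPM after CrOE EVs and to at most 1.59 in the other groups. Of these, Tek averaged 1.18 CPM with CrOE EVs and 0.223 in untreated cells, and Emcn 0 and 0.0493. Against untreated cells, 2 of 3 tested epithelial and 3 of 3 tested endothelial markers were called higher with CrOE EVs (36.7% of all genes were). Cldn4 had 36 to 40 counts with CrOE EVs and at most 2 in a library elsewhere, and Tek 36 to 43 and at most 8. Both passed the filter through the CrOE EV group, so these shares were partly set by the filter and are not read as a result. The donor line is human and the markers are mouse genes, so the sums are a weak check of donor RNA. The 7 macrophage markers ran from 123 to 246 CPM outside the CrOE EV group and from 32.6 to 38.3 in it. The 5 smooth muscle markers fell from 1537 to 1604 CPM in untreated libraries to 721 to 753 (shCon), 457 to 523 (shCr) and 550 to 586 (CrOE). The 6 adipocyte markers were at 153 to 243 CPM outside the CrOE EV group and at 13.7 to 14.6 in it, and the 6 osteoblast markers at 30.5 to 42.2 throughout, of which Runx2 made up 30.3 to 41.8. Most of the macrophage sum came from Lyz2 and Cd14. Lyz2 averaged 46.9 (untreated), 78.0 (shCon), 146 (shCr) and 1.25 CPM (CrOE), and Cd14 78.3, 41.7, 48.1 and 30.5 CPM in the same order. The macrophage gene Adgre1 had at most 1 count in a library. The part of these marker genes in the results was not tested.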

How the data were processed

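Bulk RNA of 3T3 cells was sequenced from directional, poly(A)-selected libraries, per the labels' protocols. For the 12 libraries the authors deposited estimated counts by gene symbol in 1 table, unscaled. The submitters' processing notes name featureCounts and mm39. The annotation, the use of read strand and the reason why 39.8% of values are not whole are not given in the sources used here. Raw counts had been assumed, and the same test was kept on values rounded to whole numbers.

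Low genes were removed with filterByExpr over the 4 groups, libraries were scaled by TMM, and the 6 pairs of groups were tested with edgeR 4.0.16 (R 4.3.3; glmQLFit and glmQLFTest) in 1 model of all 12 libraries with 8 residual degrees of freedom. The Benjamini-Hochberg method adjusted p-values, with a threshold of 0.05. The biological coefficient of variation was 8.90%. Standard errors were derived from the F statistic. A library's detection floor was 3 counts, and floors cover counting error only. Replicate libraries differed by more than sampling noise. On simulated shCon EV against untreated data, 98 of 100 genes changed 2-fold and 83 of 100 changed 1.5-fold were recovered, with 8 false calls among 13545 genes. In the measured data 38.1% of tested genes were called in that comparison, a far larger part than was changed in the simulation. The other comparisons were not simulated, so these rates need not hold for the measured data.

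The members, the 5 related gene lists and the marker lists were chosen with earlier results of these data known. Related genes were named by rule: per list and comparison, up to 2 higher and 2 lower calls with the largest change and a mean log2 CPM of 1 or more, and for each member the 3 genes most like it with a mean of 3 or more. Lengths and exon overlaps came from GENCODE M21 (GRCm38), and promoters from RefSeq (GRCm38.p6), neither of the build in the notes. Alternatives were median-of-ratios factors, library totals, DESeq2 1.42.0, other count filters, values not rounded, a replicate block, 2-group models and each replicate left out.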

Additional observations from a re-analysis of the deposited data

How the results depend on the processing

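Over 60 values (10 genes in 6 comparisons), 813 of 840 alternative values kept their call, as did 1375 of 1409 for the related genes, and no called value changed sign. Between shCr and shCon EVs, 3 members instead of 5 were called in a model of only these groups, and 3 to 6 with a replicate left out. Members called with a replicate left out numbered 8 in shCon EVs against untreated cells, 7 to 10 in shCr EVs against untreated cells, 9 and 10 in CrOE EVs against untreated cells and shCon EVs, and 9 against shCr EVs. Counts over all genes between shCr and shCon EVs were 1247 in the model of all groups, 641 in the model of these groups alone and 632 to 1396 with a replicate left out.

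The related lists moved in that same comparison. Receptors gave 3 calls, with 1 under no low-count filter, 5 with DESeq2, 1 in the model of these groups and 1 to 4 with a replicate left out. Transcription factors gave 1 call, with 0 under no filter, 3 with DESeq2, 3 with the replicate block, 0 in the model of these groups and 0 to 3 with a replicate left out. TGF-beta genes gave 6 calls, with 3 in the model of these groups and 3 to 7 with a replicate left out. The cause was not tested, beyond fewer libraries in the last 2 kinds of alternative. These settings were applied to the related lists, and the length of all exons was tried for levels per kb, after seeing the data.

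Without the low-count filter, Sparc between shCr and shCon EVs had an adjusted p of 0.0602 and Thbs2 in shCr EVs against untreated cells 0.0688 (edgeR). In models of only the groups compared, Tnxb and Thbs2 in shCr EVs against untreated cells had 0.125 and 0.0533, and Thbs3 and Sparc between shCr and shCon EVs 0.0840 and 0.0693. Fn1 in shCr EVs against untreated cells passed with library totals (0.0475).

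Same-numbered libraries of different groups deviated together in 5 of 18 pairs (r over 0.1, range -0.20 to 0.32), and 4 of 12 libraries were closest to their own number, so the numbers were not taken as pairing. With the replicate block, Fn1 in shCr EVs against untreated cells had a log2 fold change of -0.19 (edgeR adjusted p = 0.0424). Depth limits Tnn and Sparcl1 after CrOE EVs, where few counts widen the error.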
